A study of Mus musculus with 10 samples.

Results

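The 42 genes described here act in mitosis and in the spindle checkpoint, which delays the separation of chromosomes until all are attached. They were chosen by gene symbol, as a list of cyclins, mitotic kinases, kinetochore proteins, checkpoint proteins, anaphase regulators and spindle proteins, and all 42 were found among the 35395 genes of the authors' deposited table. Per the labels, RNA came from epididymal white adipose tissue, a visceral fat depot of the abdomen, of male C57BL/6 mice. The labels list 2 Ad-IGF2 and 3 Ad-GFP samples, from obese mice given 2 adenovirus injections a week into that fat for 4 weeks. They also list 2 IGF2-RNAi and 3 NC-RNAi samples, from mice aged 3 to 4 weeks at a tail vein injection of lentivirus. That virus encoded a hairpin against IGF2, a fetal growth factor, or a control hairpin. The adenoviral vector drives expression from a CMV promoter and the hairpins from a U6 promoter, neither of which is restricted to fat cells. All 35395 identifiers in the table are human and none is in the mouse annotation, and its 4 comparisons carry no names. No comparison could therefore be tied to a labelled group, and the values below describe the table's own libraries and not an effect of IGF2 in mouse fat.

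Entry into mitosis depends on cyclin B bound to the kinase CDK1, which phosphatases of the CDC25 family switch on. Chromosomes then attach to spindle microtubules through kinetochores, and unattached kinetochores load checkpoint proteins that hold back CDC20, the activator of the anaphase-promoting complex. Most of these genes are transcribed late in the cell cycle and are low in cells that do not divide, and mature fat cells rarely divide.

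The base mean of a comparison is the mean of its libraries' normalised reads, so every read of a library adds the same fixed step to it. Steps for 4 libraries, 2 on each side, gave 100% of the rows with a base mean under 3 in every comparison in the authors' deposited table, against 50.7%, 48.0%, 42.2% and 38.5% with 3 steps in the first to the fourth. Because each library recurs in 2 comparisons, the reads of all 8 libraries could be solved for 26654 of the 26755 genes listed in all 4 comparisons, and for all 42 mitosis genes. The first and the second comparison share numerator set 1, the third and the fourth share numerator set 2, the first and the third share reference set 1, and the second and the fourth share reference set 2. Within each set of 2, library a is the one with the larger size factor, and pairs of values below give library a and then library b. The sets are abbreviated as N2, N1, R2 and R1, and a library as N1a, for instance. Recovered reads per library numbered between 10009902 (N2b) and 23454567 (N1a). They leave out 101 abundant genes, which hold 18.3% to 18.6% of the summed base means in the authors' deposited table. IGF2 had 0 reads in both libraries of each numerator set and 1 read in each library of reference set 1, and has no row in the second and the fourth comparison. The defining fat genes were close to 0 as well: ADIPOQ, which encodes adiponectin, had 5 reads over all 8 libraries, CFD 4 and LPL 10, and they stayed under the keratins KRT8 and KRT18 of epithelial cells in every library. KRT8 had 4062 and 4538 normalised reads in N2, 7859 and 7164 in N1, 9596 and 11168 in R2 and 7725 and 5838 in R1. KRT18 had 1788 and 2064 in N2, 2967 and 3202 in N1, 3601 and 4802 in R2 and 3819 and 3501 in R1. KRT8 and KRT18 were thus lowest in numerator set 2, where the mitosis genes were also low. The keratin KRT7 went the other way, with 632 and 532 in N2, 143 and 197 in N1, 144 and 229 in R2 and 312 and 244 in R1. The epithelial markers EPCAM, CDH1 and KRT19 had 29, 28 and 57 reads over all 8 libraries. The summed normalised reads of 8 fat markers were 227 and 153 in N2, 78 and 28 in N1, 19.6 and 32.3 in R2 and 28.9 and 10.6 in R1, most of them from PLIN4 in N2, and 4 of the 8 reached 10 normalised reads in any library. The 6 fibroblast markers summed to 231 and 278 in N2, 794 and 411 in N1, 452 and 374 in R2 and 564 and 403 in R1. This sum was lowest in numerator set 2, but COL1A1 alone gave 206 and 251 of it there. Other fibroblast markers, all with few reads, were higher in N2 than in the reference libraries. COL1A2 had 8.68 and 6.61 against 2.11 to 4.35, and PDGFRA 8.68 and 5.29 against 1.06 to 2.17. COL3A1 had 3.25 and 10.6 against 0 to 2.17, and DCN 3.25 and 3.97 against 0 to 1.11. The sums of 6 leukocyte and 4 endothelial markers in numerator set 2 were 159 and 135 and 48.8 and 66.1, against 80.2 to 148 and 22.3 to 62.0 in the reference libraries. The part of these levels in the results below was not tested. Nothing in the sources used here says whether the libraries of a set came from separate cultures or animals, so p-values measure the spread between these libraries, which may be technical.

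Both libraries of numerator set 2 and library N1a had low levels of nearly all mitosis genes, and library N1b did not. Library N2a lay below all 4 reference libraries in 41 of the 42 genes, library b of that set in 42, library N1a in 42 and library N1b in 1. The exception in library N2a was HMMR, and the 1 gene in library N1b was SPC24. Library N1b lay above all 4 reference libraries in 17 genes and was the highest of the 8 libraries in those 17, and none of the other 3 numerator libraries lay above them in any. The share of all genes in such positions was not worked out for single libraries. For whole sets, all genes with at least 10 normalised reads on average were counted. Both libraries of N2 lay below both of R2 in 38.9% of them, and below both of R1 in 39.1%. For N1 these shares were 23.5% and 15.8%, with 17 and 1 of the mitosis genes. Against the mean of the 4 reference libraries, the median log2 difference of the 42 genes was -1.97 and -1.68 in the libraries of numerator set 2, and -1.77 and 0.26 in those of numerator set 1. Among the reference libraries the same median ran between -0.39 and 0.24, so that library N1b had the highest median of the 8. In bulk RNA, fewer dividing cells and less RNA of these genes per cell cannot be told apart.

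**Figure D1:**
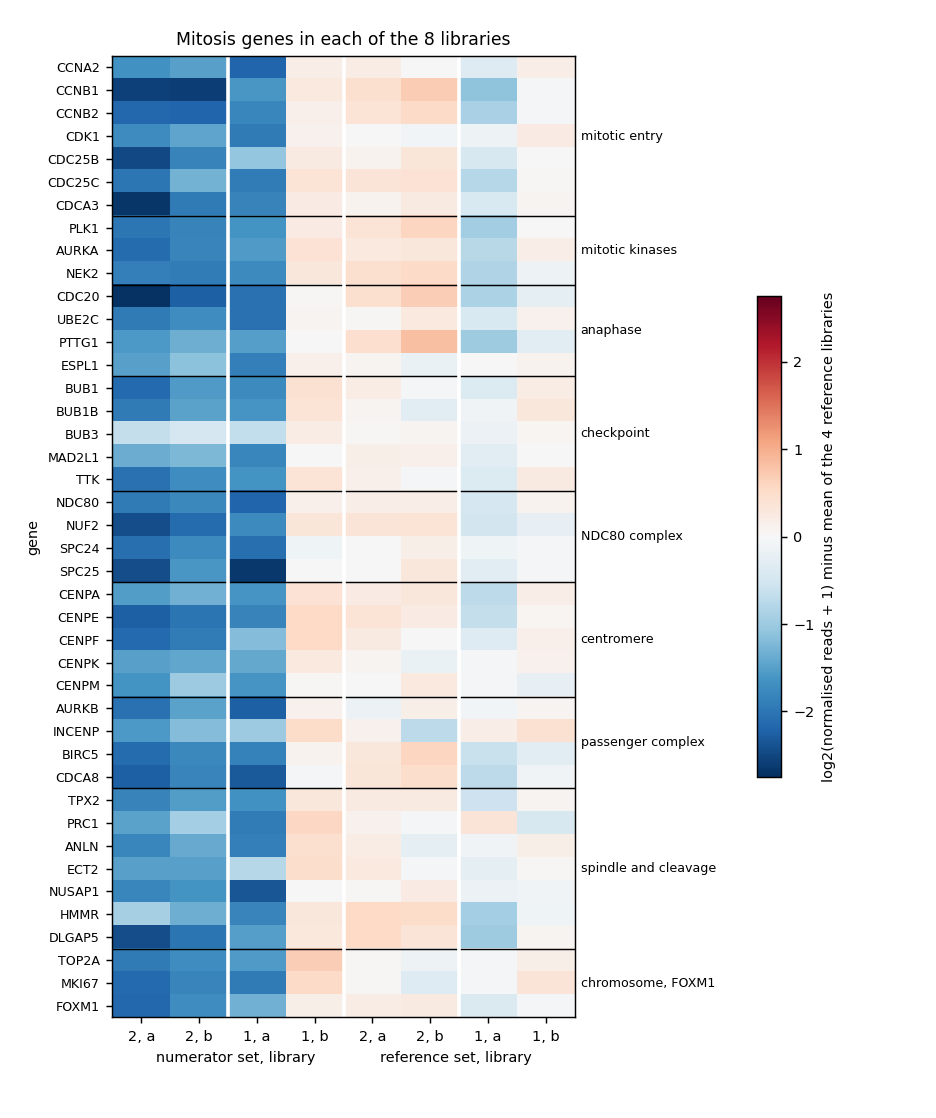
Level of each of the 42 mitosis genes (rows, by role) in the 8 libraries (columns, numerator sets at the left), as log2(normalised reads + 1) minus the mean of the 4 reference libraries. The columns of numerator set 2 and of library a in numerator set 1 are blue in nearly every row, while library N1b has a median of 0.26, against -0.39 to 0.24 in the reference columns.

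Against either reference set, 41 of the 42 mitosis genes were lower in numerator set 2 and 0 were higher (the fourth and the third comparison), at an adjusted p under 0.05 in the authors' deposited table. Over all tested genes of that table, 16.1% were called lower and 14.8% higher in the third comparison, and 17.5% were called lower and 17.2% higher in the fourth. These shares were not matched for level. The median base mean of the mitosis genes was 1016 in the fourth and 966 in the third comparison, against 94.0 and 90.5 over all tested genes. Their median standard errors were 0.21 and 0.23, against 0.39 and 0.42. The median log2 fold change of the mitosis genes in the authors' deposited table was -2.02 in the fourth and -1.74 in the third comparison, against 0.08 and 0.09 over all tested genes. Their fold changes ran between -3.21 (CCNB1) and -0.66 (BUB3) in the fourth and between -2.19 (MKI67) and -0.55 (BUB3) in the third comparison in the authors' deposited table. These comparisons share numerator set 2, so their values are not independent of each other. The method limma fits a linear model to each gene, with information on the variance shared across genes. On the recovered reads it called 42 mitosis genes lower in the fourth and 40 in the third comparison, and 0 higher. Of all genes, 24.2% and 22.7% were lower and 26.7% and 23.5% higher in these fits. Both numerator libraries lay below both reference libraries in 42 genes in the fourth and in 41 in the third comparison, where 38.9% and 39.1% of all genes with at least 10 normalised reads on average did so. The median gene of at least 2 CPM (base mean scaled to the summed base means) stood at -0.15 in the fourth and at -0.16 in the third comparison in the authors' deposited table. Centred on that gene, the median of the mitosis genes was -1.88 and -1.59.

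The regulators of mitotic entry are the cyclins CCNA2, CCNB1 and CCNB2, the kinase CDK1, the phosphatases CDC25B and CDC25C and CDCA3, a trigger of the breakdown of an entry inhibitor. All 7 were lower in numerator set 2 in both the fourth and the third comparison, and the authors' deposited table gives medians of -2.41 and -1.81. CCNB1, cyclin B1, had 553 and 545 normalised reads in N2, 1086 and 3954 in N1, 4423 and 5333 in R2 and 1522 and 3206 in R1. Both libraries of numerator set 2 lay below every other library, library N1a came next, and library N1b lay among the reference libraries. CCNB1 had a log2 fold change of -3.21 (SE 0.19, adjusted p = 5.1e-64) in the fourth and -2.15 (SE 0.51, adjusted p = 0.000212) in the third comparison, per the authors' deposited table. CCNB2 had 219 and 216 normalised reads in N2, 280 and 1077 in N1, 1274 and 1413 in R2 and 528 and 955 in R1. This second B-type cyclin had the same order of libraries, with no overlap between numerator set 2 and either reference set, and its log2 fold change was -2.69 (SE 0.21, adjusted p = 9.24e-35) in the fourth and -1.81 (SE 0.27, adjusted p = 1.02e-09) in the third comparison, per the authors' deposited table. CDC25B, which starts the activation of cyclin B and CDK1 at the centrosome, had 271 and 422 normalised reads in N2, 718 and 1805 in N1, 1610 and 1912 in R2 and 1117 and 1523 in R1. Library N1a lay between numerator set 2 and the reference libraries for this gene. Its log2 fold change was -2.41 (SE 0.24, adjusted p = 3.28e-22) in the fourth and -1.98 (SE 0.24, adjusted p = 5.56e-15) in the third comparison, per the authors' deposited table.

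The mitotic kinases PLK1, AURKA and NEK2 were all lower in numerator set 2 in both comparisons. PLK1, which drives centrosome maturation and many later steps of mitosis, had 972 and 1087 normalised reads in N2, 1238 and 4503 in N1, 5028 and 5837 in R2 and 1996 and 3815 in R1. Library R1a was the lowest of the 4 reference libraries and still lay above both libraries of numerator set 2. On the log2 scale PLK1 stood at -2.46 (SE 0.18, adjusted p = 9.44e-40) in the fourth and -1.54 (SE 0.46, adjusted p = 0.00402) in the third comparison, per the authors' deposited table. AURKA, the kinase of spindle poles, had 588 and 715 normalised reads in N2, 866 and 3340 in N1, 3075 and 3131 in R2 and 1500 and 2867 in R1, and in library N1b it exceeded all reference libraries. Its log2 fold change was -2.31 (SE 0.19, adjusted p = 1.99e-32) in the fourth and -1.79 (SE 0.47, adjusted p = 0.00102) in the third comparison, per the authors' deposited table. NEK2, which splits the centrosomes, had 143 and 139 normalised reads in N2, 157 and 661 in N1, 722 and 758 in R2 and 299 and 478 in R1. Both libraries of numerator set 2 and library N1a fell into a narrow range below the other 5 libraries. For NEK2 the log2 fold change was -2.45 (SE 0.24, adjusted p = 8.16e-23) in the fourth and -1.51 (SE 0.29, adjusted p = 3.90e-06) in the third comparison, per the authors' deposited table.

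The anaphase regulators CDC20, UBE2C, PTTG1 and ESPL1 were all lower in both comparisons, with medians of -2.11 in the fourth and -1.58 in the third comparison in the authors' deposited table. CDC20, the activator that the checkpoint holds back, had 782 and 1087 normalised reads in N2, 1233 and 5228 in N1, 6947 and 8181 in R2 and 2804 and 4355 in R1. Its levels in numerator set 2 lay below those of every other library, and library N1b lay between the reference sets. CDC20 changed on the log2 scale by -3.08 (SE 0.20, adjusted p = 2.36e-49) in the fourth and -1.98 (SE 0.22, adjusted p = 1.20e-17) in the third comparison, per the authors' deposited table. UBE2C, the ubiquitin-conjugating enzyme of the anaphase-promoting complex, had 638 and 748 normalised reads in N2, 589 and 2598 in N1, 2534 and 2943 in R2 and 1827 and 2690 in R1. Here library N1a was the lowest of the 8 libraries, and the log2 fold change was -2.04 (SE 0.19, adjusted p = 3.56e-24) in the fourth and -1.75 (SE 0.20, adjusted p = 8.68e-16) in the third comparison, per the authors' deposited table. PTTG1, or securin, which keeps separase inactive, had 361 and 420 normalised reads in N2, 375 and 1074 in N1, 1470 and 1907 in R2 and 544 and 871 in R1. The reference sets did not overlap for this gene, and its log2 fold changes were -2.17 (SE 0.22, adjusted p = 9.50e-22) in the fourth and -0.90 (SE 0.25, adjusted p = 0.00168) in the third comparison, per the authors' deposited table. PTTG2, a close copy of PTTG1, is also listed, and no source used here says how reads matching both were counted. ESPL1, or separase itself, had log2 fold changes of -1.32 (SE 0.21, adjusted p = 5.11e-09) in the fourth and -1.40 (SE 0.18, adjusted p = 5.16e-13) in the third comparison, per the authors' deposited table.

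The 5 checkpoint genes were lower in numerator set 2, with medians of -1.65 in the fourth and -1.82 in the third comparison in the authors' deposited table, and they hold the gene that moved least. BUB1, a kinase that recruits the other checkpoint proteins, had 369 and 550 normalised reads in N2, 483 and 2171 in N1, 1862 and 1578 in R2 and 1253 and 1879 in R1. The 3 low libraries lay apart from the other 5, of which library N1b was the highest. The fold change of BUB1 in log2 was -1.97 (SE 0.23, adjusted p = 5.04e-16) in the fourth and -1.82 (SE 0.24, adjusted p = 1.01e-12) in the third comparison, per the authors' deposited table. TTK, the kinase also known as MPS1 that starts checkpoint signalling, had 198 and 253 normalised reads in N2, 264 and 1076 in N1, 918 and 808 in R2 and 643 and 990 in R1. Its libraries were split as for BUB1, and its log2 fold change was -2.0 (SE 0.23, adjusted p = 6.68e-16) in the fourth and -1.90 (SE 0.25, adjusted p = 2.71e-12) in the third comparison, per the authors' deposited table. MAD2L1, the checkpoint protein that binds CDC20, had 648 and 709 normalised reads in N2, 481 and 1688 in N1, 1860 and 1825 in R2 and 1347 and 1692 in R1, with the lowest value in library N1a. MAD2L1 had a log2 fold change of -1.50 (SE 0.19, adjusted p = 3.59e-14) in the fourth and -1.21 (SE 0.19, adjusted p = 1.74e-09) in the third comparison, per the authors' deposited table. BUB3, an adaptor that also has functions outside mitosis, had 2264 and 2580 normalised reads in N2, 2233 and 4111 in N1, 3614 and 3750 in R2 and 3194 and 3680 in R1. The 3 low libraries were apart from the rest here as well, by a smaller step, and the log2 fold change was -0.66 (SE 0.17, adjusted p = 0.000765) in the fourth and -0.55 (SE 0.16, adjusted p = 0.00258) in the third comparison, per the authors' deposited table. BUB1B, which encodes the checkpoint protein BUBR1, had log2 fold changes of -1.65 (SE 0.23, adjusted p = 2.59e-11) in the fourth and -1.85 (SE 0.22, adjusted p = 6.87e-16) in the third comparison, per the authors' deposited table.

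**Figure D2:**
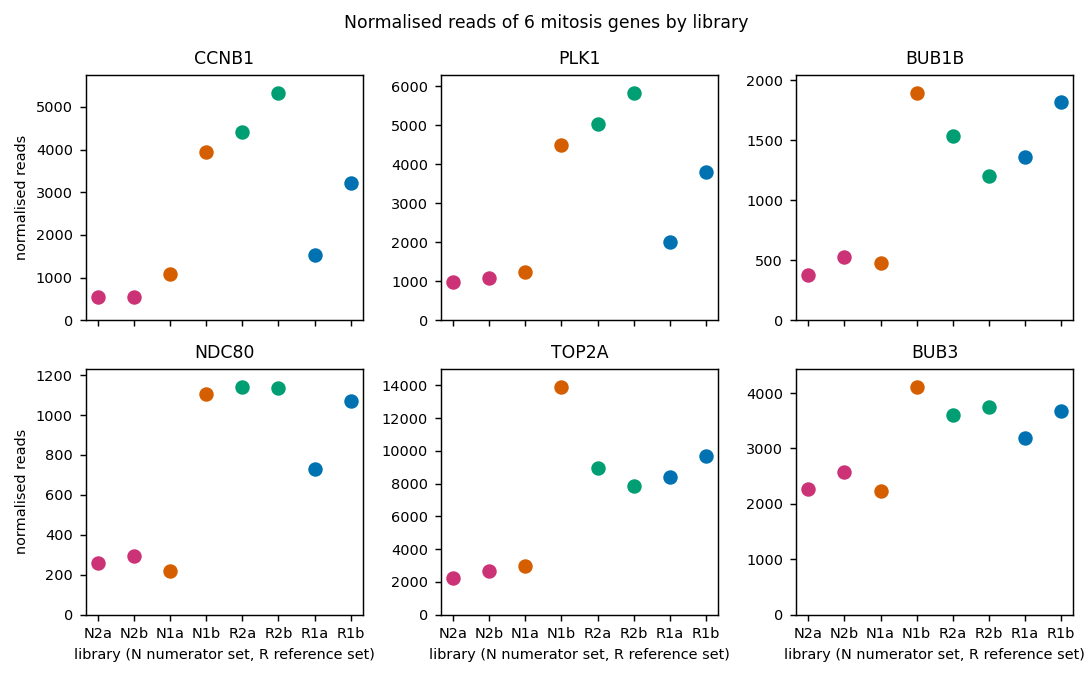
Normalised reads (vertical axes, from 0) of 6 mitosis genes in each library, numerator sets N2 and N1 at the left and reference sets R2 and R1 at the right, with 1 point per library. In each panel the points of N2a, N2b and N1a lie below the other 5, and CCNB1 has 553 and 545 in N2 against 4423 and 5333 in R2.

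The 4 subunits of the NDC80 complex, which couples kinetochores to microtubules, were lower in numerator set 2 with medians of -2.15 in the fourth and -1.86 in the third comparison in the authors' deposited table. NUF2 had 180 and 226 normalised reads in N2, 291 and 1245 in N1, 1267 and 1274 in R2 and 693 and 850 in R1. Both libraries of numerator set 2 were the lowest, followed by library N1a. On the log2 scale NUF2 stood at -2.71 (SE 0.22, adjusted p = 1.34e-32) in the fourth and -1.97 (SE 0.23, adjusted p = 7.18e-16) in the third comparison, per the authors' deposited table. For NDC80, which binds the microtubule, the values were 260 and 294 normalised reads in N2, 220 and 1107 in N1, 1140 and 1133 in R2 and 730 and 1071 in R1. Library N1a was the lowest of the 8 for this gene, and the log2 fold change was -2.10 (SE 0.21, adjusted p = 1.98e-21) in the fourth and -1.75 (SE 0.23, adjusted p = 3.23e-12) in the third comparison, per the authors' deposited table. SPC24, which anchors the complex at the kinetochore, had 276 and 346 normalised reads in N2, 274 and 1068 in N1, 1163 and 1297 in R2 and 1076 and 1122 in R1. All 4 numerator libraries lay below all 4 reference libraries for SPC24, though library N1b did so by a narrow margin. For SPC24 the log2 fold change was -2.05 (SE 0.22, adjusted p = 4.16e-19) in the fourth and -1.87 (SE 0.20, adjusted p = 1.18e-18) in the third comparison, per the authors' deposited table. That of SPC25, its partner, was -2.21 (SE 0.31, adjusted p = 3.53e-11) in the fourth and -1.86 (SE 0.31, adjusted p = 4.90e-08) in the third comparison, per the authors' deposited table.

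Of the centromere and kinetochore genes, CENPA, CENPE, CENPF, CENPK and CENPM were all lower in both comparisons. CENPE, a kinesin that brings chromosomes to the spindle equator, had 494 and 588 normalised reads in N2, 660 and 3438 in N1, 3070 and 2769 in R2 and 1490 and 2443 in R1. Library N1b exceeded every reference library, and library a of the same set lay below all of them. CENPE changed on the log2 scale by -2.49 (SE 0.19, adjusted p = 1.11e-36) in the fourth and -1.91 (SE 0.23, adjusted p = 2.64e-15) in the third comparison, per the authors' deposited table. CENPF, a large protein of the outer kinetochore, had 1311 and 1510 normalised reads in N2, 2503 and 8405 in N1, 6795 and 5679 in R2 and 4455 and 6295 in R1, and its log2 fold change was -2.20 (SE 0.18, adjusted p = 1.52e-31) in the fourth and -1.98 (SE 0.18, adjusted p = 1.36e-24) in the third comparison, per the authors' deposited table. Library N1a stood above both libraries of numerator set 2 for CENPF, though below the reference libraries. CENPA, the histone variant that marks centromeres, had 116 and 135 normalised reads in N2, 111 and 448 in N1, 400 and 422 in R2 and 208 and 385 in R1, and its log2 fold change was -1.77 (SE 0.27, adjusted p = 1.70e-09) in the fourth and -1.28 (SE 0.34, adjusted p = 0.000865) in the third comparison, per the authors' deposited table.

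All 4 genes of the chromosomal passenger complex, which corrects faulty attachments and later acts in cleavage, were lower, with medians of -2.13 in the fourth and -1.71 in the third comparison in the authors' deposited table. BIRC5, or survivin, had 657 and 845 normalised reads in N2, 787 and 3064 in N1, 3583 and 4340 in R2 and 1872 and 2332 in R1. The values of reference set 2 lay above those of reference set 1, and the log2 fold change was -2.46 (SE 0.20, adjusted p = 3.85e-32) in the fourth and -1.53 (SE 0.19, adjusted p = 5.27e-14) in the third comparison, per the authors' deposited table. CDCA8, or borealin, had 341 and 461 normalised reads in N2, 325 and 1561 in N1, 2044 and 2254 in R2 and 986 and 1526 in R1. Library N1a was the lowest of the 8 libraries for CDCA8, whose log2 fold change was -2.48 (SE 0.21, adjusted p = 9.16e-30) in the fourth and -1.69 (SE 0.24, adjusted p = 4.39e-11) in the third comparison, per the authors' deposited table. AURKB, the kinase of the complex, had 363 and 547 normalised reads in N2, 316 and 1639 in N1, 1357 and 1698 in R2 and 1429 and 1594 in R1. The reference sets overlapped for AURKB, and its log2 fold change was -1.81 (SE 0.24, adjusted p = 1.12e-12) in the fourth and -1.78 (SE 0.21, adjusted p = 3.71e-15) in the third comparison, per the authors' deposited table. INCENP, the scaffold, had 753 and 985 normalised reads in N2, 1129 and 3195 in N1, 2468 and 1366 in R2 and 2578 and 3028 in R1, with library R2b far below the other reference libraries. The fold change of INCENP in log2 was -1.20 (SE 0.26, adjusted p = 3.58e-05) in the fourth and -1.74 (SE 0.18, adjusted p = 1.66e-19) in the third comparison, per the authors' deposited table.

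Among the genes of the spindle and of cleavage, 6 of 7 were lower in each comparison, and PRC1 was not called. DLGAP5, a microtubule-binding protein of the spindle, had 197 and 270 normalised reads in N2, 380 and 1313 in N1, 1576 and 1392 in R2 and 547 and 1138 in R1. The libraries of reference set 1 differed 2.08-fold from each other for DLGAP5, and numerator set 2 lay below both. Its log2 fold change was -2.73 (SE 0.22, adjusted p = 8.93e-32) in the fourth and -1.90 (SE 0.30, adjusted p = 7.30e-09) in the third comparison, per the authors' deposited table. TPX2, which activates AURKA on the spindle, had 2214 and 2699 normalised reads in N2, 2463 and 9811 in N1, 9320 and 9367 in R2 and 5327 and 8249 in R1, and its log2 fold change was -1.99 (SE 0.17, adjusted p = 1.23e-27) in the fourth and -1.51 (SE 0.20, adjusted p = 1.47e-12) in the third comparison, per the authors' deposited table. ECT2, the exchange factor that starts the cleavage furrow, had 1024 and 1018 normalised reads in N2, 1675 and 4037 in N1, 3456 and 2800 in R2 and 2419 and 2923 in R1. Library N1a held more ECT2 than both libraries of numerator set 2, and the log2 fold change was -1.67 (SE 0.19, adjusted p = 1.55e-17) in the fourth and -1.43 (SE 0.17, adjusted p = 3.12e-16) in the third comparison, per the authors' deposited table. HMMR, a spindle pole protein and hyaluronan receptor, had 628 and 464 normalised reads in N2, 335 and 1482 in N1, 1747 and 1690 in R2 and 617 and 1088 in R1. Library N2a overlapped library R1a for HMMR, whose log2 fold change was -1.71 (SE 0.21, adjusted p = 1.01e-14) in the fourth and -0.69 (SE 0.26, adjusted p = 0.0298) in the third comparison, per the authors' deposited table.

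PRC1, which bundles the central spindle, had few reads, 9 and 11 in numerator set 2, 12 and 40 in numerator set 1, 29 and 25 in reference set 2 and 45 and 20 in reference set 1. Normalised, library N2a held 9.76 with an exact 95% Poisson interval of 4.46 to 18.5, and library b of that set 14.5 (7.26 to 26). In reference set 2 the values were 31.5 (21.1 to 45.3) and 27.8 (18 to 41.1), and in reference set 1 they were 37.1 (27.1 to 49.7) and 21.1 (12.9 to 32.6). The interval of library N2a lies below those of library R2a and library R1a and overlaps the other reference intervals, and all of them cover counting error only. PRC1 had a log2 fold change of -1.36 (SE 0.79, adjusted p = 0.18) in the fourth and -1.32 (SE 0.82, adjusted p = 0.231) in the third comparison, per the authors' deposited table. limma on the recovered reads called PRC1 lower in the fourth comparison, at -1.24 (SE 0.46, limma adjusted p = 0.0286), and not in the third, at -1.17 (SE 0.49, limma adjusted p = 0.0719). The antisense gene PRC1-AS1 is listed in the table, and no source used here says whether counting used strand.

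The remaining group holds TOP2A, which untangles chromosomes, MKI67, which coats them and is a common marker of dividing cells, and FOXM1, a transcription factor of late cell cycle genes. FOXM1 had 922 and 1267 normalised reads in N2, 1642 and 4592 in N1, 4728 and 4924 in R2 and 3112 and 4009 in R1, and its log2 fold change was -2.20 (SE 0.20, adjusted p = 9.68e-27) in the fourth and -1.75 (SE 0.19, adjusted p = 1.38e-17) in the third comparison, per the authors' deposited table. For TOP2A the values were 2251 and 2668 normalised reads in N2, 2949 and 13904 in N1, 8926 and 7850 in R2 and 8383 and 9704 in R1. Library N1b held more TOP2A than any other library, and the log2 fold change was -1.83 (SE 0.18, adjusted p = 4.92e-23) in the fourth and -1.92 (SE 0.16, adjusted p = 1.63e-32) in the third comparison, per the authors' deposited table. MKI67 had 2531 and 3188 normalised reads in N2, 2914 and 16168 in N1, 11373 and 8686 in R2 and 10997 and 14335 in R1. The spread between the libraries of numerator set 1 exceeded the whole range of the reference libraries for MKI67, whose log2 fold change was -1.87 (SE 0.20, adjusted p = 1.49e-19) in the fourth and -2.19 (SE 0.17, adjusted p = 1.08e-33) in the third comparison, per the authors' deposited table.

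**Figure D3:**
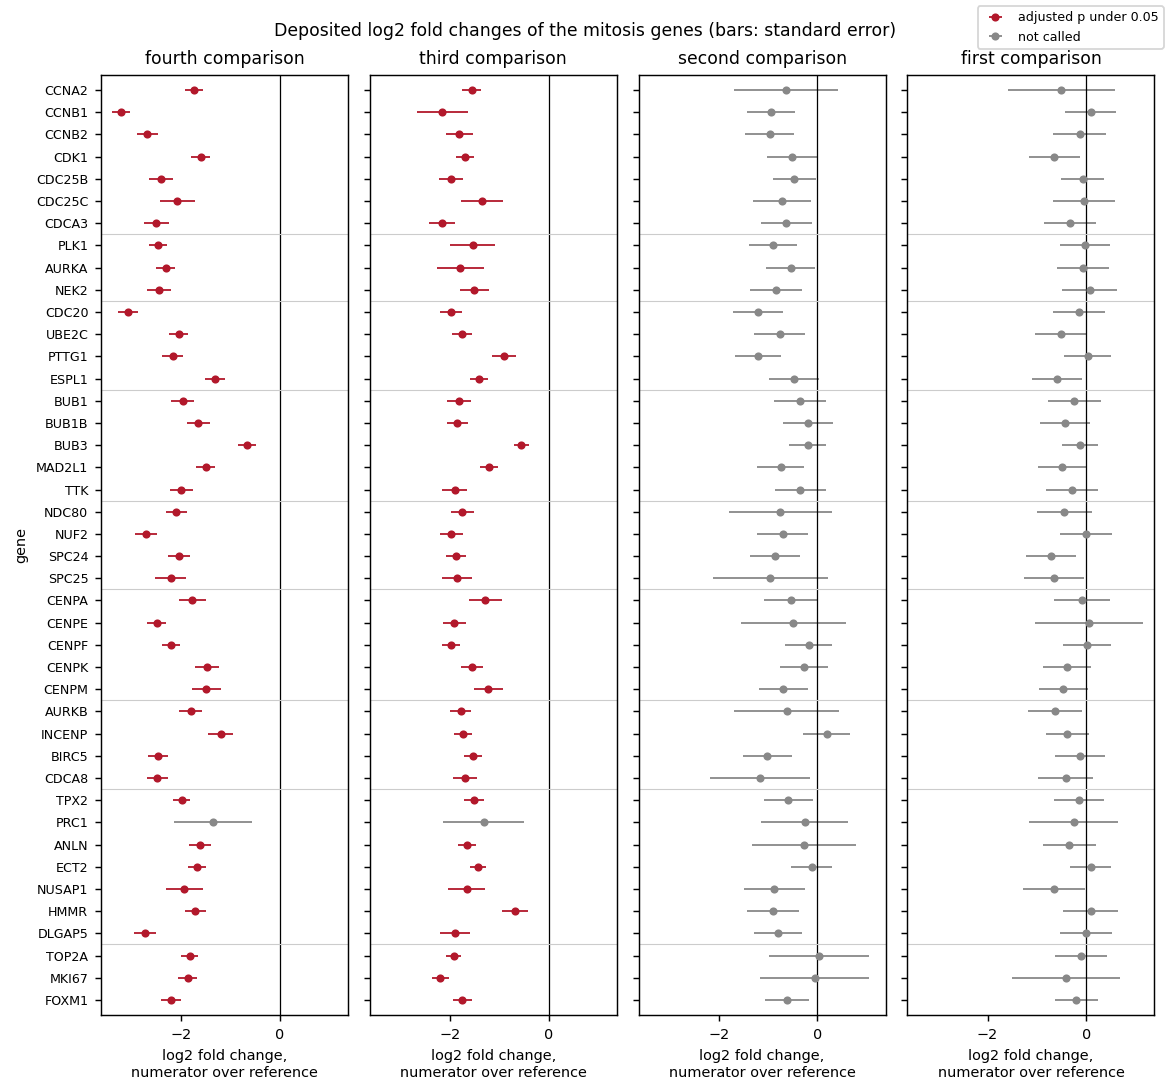
Log2 fold change, numerator over reference, with its standard error (bars), of the 42 mitosis genes by role in the fourth, the third, the second and the first comparison in the authors' deposited table. Red points have an adjusted p under 0.05, 41 in each of the fourth and the third comparison, and all 42 points of the second and the first comparison are grey.

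In the second and the first comparison, which share numerator set 1, 0 of the 42 mitosis genes were called in either direction at an adjusted p under 0.05 in the authors' deposited table. Over all tested genes of that table, 0.262% were called lower and 0.558% higher in the second comparison, and 0.0258% were called lower and 0.0258% higher in the first. At an unadjusted p under 0.05 the authors' deposited table holds 3 of the mitosis genes in the second comparison, PTTG1, CDC20 and BIRC5, and 0 in the first, where 9.25% and 2.79% of all tested genes of that table had such a p. limma on the recovered reads also called 0 mitosis genes in both, with 6 and 0 at an unadjusted p under 0.05, against 9.85% and 1.65% of all genes in those fits. Of all genes it called 0.0249% lower and 0.0374% higher in the second comparison, and 0% in either direction in the first. The medians of the mitosis genes in the authors' deposited table were -0.63 in the second and -0.22 in the first comparison, with 40 and 34 of 42 below 0, against 0.02 and 0.01 over all tested genes. Their standard errors were larger than in the comparisons with numerator set 2, at medians of 0.51 and 0.53 in the second and the first comparison in the authors' deposited table, against 0.21 and 0.23 in the fourth and the third. CDC20 stood at -1.21 (SE 0.51, adjusted p = 0.365) in the second and at -0.15 (SE 0.52, adjusted p = 1.00) in the first comparison in the authors' deposited table.

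The libraries of numerator set 1 were unlike each other in every mitosis gene. Library a was lower than library b in 42 of 42 genes and over 2-fold lower in 41, where 7.59% of all genes with at least 10 normalised reads on average were over 2-fold lower and 12.7% over 2-fold higher. The median ratio was 4.06-fold, between 1.84-fold for BUB3 and 6.22-fold for SPC25, which had 68.3 normalised reads in library a against 430.2 in library b. MKI67 was 5.55-fold and NDC80 5.02-fold lower in library a. In log2 terms the median was -2.02 for the mitosis genes against 0.01 for all genes, or -1.91 against 0.12 when libraries were scaled to their total reads. Among the 9 role groups the medians ran between -2.24 for the group of TOP2A, MKI67 and FOXM1 and -1.75 for the centromere genes, and these were not tested against each other.

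The other sets showed no gap of this size. Library a was lower than library b in 37 of 42 mitosis genes of numerator set 2 with a median of -0.31, in 23 of reference set 2 with a median of -0.02 and in 40 of reference set 1 with a median of -0.47. Over 2-fold, library a was lower in 0 mitosis genes of numerator set 2, in 0 of reference set 2 and in 2 of reference set 1, CCNB1 and DLGAP5. Over all genes, library a was over 2-fold lower in 1.32% of N2, 2.72% of R2 and 2.34% of R1 and over 2-fold higher in 2.4%, 2.82% and 4.66%, where 0 mitosis genes were. Other measures also differed between the libraries of numerator set 1. Library a had 23454567 recovered reads against 13497792 in library b, and the summed normalised reads of 6 fibroblast markers were 794 against 411, with 757 and 388 of them from COL1A1. COL3A1, COL1A2 and DCN had 24.1, 5.74 and 0.574 normalised reads in library a and 2.16, 3.23 and 0 in library b, while PDGFRA was lower in library a, with 6.89 against 17.2. The 4 endothelial markers summed to 142 in library a against 49.6 in library b, and PECAM1 alone gave 105 and 7.55 of these reads. VWF had 10.9 against 3.23, CDH5 had 2 reads in library a and 1 in library b, and KDR was lower in library a, with 25.2 against 37.7. The part of these measures in the gap was not tested.

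Library N1a shared the low mitosis genes of numerator set 2 without its high stress genes. HERPUD1, which helps to remove misfolded proteins of the secretory pathway, had 10617 and 9772 normalised reads in numerator set 2, 1037 and 585 in numerator set 1, 640 and 699 in reference set 2 and 530 and 588 in reference set 1. DDIT3, the stress transcription factor CHOP, had 1592 and 1535 in numerator set 2, 136 and 84.1 in numerator set 1, 100 and 167 in reference set 2 and 135 and 101 in reference set 1. Both genes were chosen after their values were seen. In library N1a, DDIT3 lay within the range of the reference libraries and HERPUD1 above it, and both lay far below numerator set 2.

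**Figure D4:**
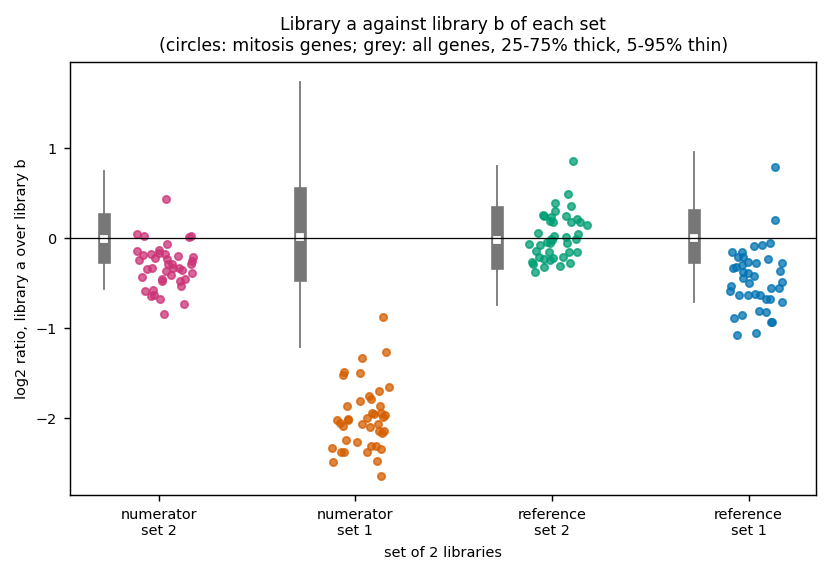
Log2 ratio of library a over library b within each set, for the 42 mitosis genes (circles) and for all genes with at least 10 normalised reads on average (grey, thick from the 25th to the 75th and thin from the 5th to the 95th percentile, with the median in white). In numerator set 1 every mitosis gene lies below 0, around a median of -2.02, while the other 3 sets lie closer to 0.

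The calls in the second and the first comparison changed with the library of numerator set 1 that was kept. limma on the recovered reads called 41 mitosis genes lower in the second and 38 in the first comparison when library b was left out, and 0 in each when library a was left out. Without library b, 11.2% of all genes were called lower and 12.3% higher in the second comparison, and 9.89% lower and 7.4% higher in the first. Without library a these shares were 1.81% and 2.2% in the second, and 0.0193% and 0% in the first. Medians were taken from log2 ratios of mean normalised reads and not from limma. Without library b the median was -1.96 in the second and -1.55 in the first comparison, and without library a it was 0.04 and 0.42. When numerator set 2 was set against numerator set 1 directly, a comparison added after the data had been seen, limma called 0 mitosis genes at an adjusted p under 0.05, with 6 at an unadjusted p under 0.05. Over all genes of that fit, 2.21% were called lower and 5.87% higher in numerator set 2, and 29.1% had an unadjusted p under 0.05. Without library N1a, limma called 42 mitosis genes lower in numerator set 2, where 20.9% of all genes were lower and 24.7% higher. Without library b it called 6 of 42 lower and 4 higher, where 19.4% of all genes were lower and 23.3% higher. With 1 library left on a side, that library was assumed to vary like the others.

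The difference between comparisons that share no library was tested as well. In the fourth minus the first comparison, all 42 differences of the fold changes in the authors' deposited table were below 0 with a median of -1.72, and 21 passed an adjusted p of 0.05, all lower. Of all genes tested for that difference, 4.97% were lower and 4.08% higher. CCNB1 had the largest, at -3.30 (SE 0.56, adjusted p = 6.87e-07) from log2 fold changes of -3.21 in the fourth and 0.09 in the first comparison in the authors' deposited table. CDC20 differed by -2.92 (SE 0.56, adjusted p = 2.04e-05), DLGAP5 by -2.73 (SE 0.57, adjusted p = 0.00013) and NUF2 by -2.70 (SE 0.57, adjusted p = 0.00017) between the same columns of the authors' deposited table. In the third minus the second comparison, 40 of 42 differences were below 0 with a median of -1.04, and 5 passed, all lower, in INCENP, CENPF, BUB1B, CDC25B and ECT2 of the authors' deposited table. Of all genes tested for this difference, 4.74% were lower and 3.21% higher. INCENP had the smallest p, with a difference of -1.92 (SE 0.51, adjusted p = 0.00472) from -1.74 in the third and 0.19 in the second comparison in the authors' deposited table. CDC25B, CENPF and ECT2 passed in both tests of a difference, and the share of all genes that did so was not worked out. Each test pairs the numerator sets with the reference sets in another way. A gap between the reference sets therefore enters both tests, with opposite sign.

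The reference sets also differed in part of the mitosis genes, a comparison that the table does not hold and that was added after the data had been seen. limma on the recovered reads called 11 of 42 higher in reference set 2 and 0 lower, where 3.41% of all genes were higher and 4.06% lower. They were PTTG1, CDC20, BIRC5, HMMR, CCNB1, NEK2, PLK1, CCNB2, CDCA8, NUF2 and DLGAP5. PTTG1 had 1470 and 1907 normalised reads in reference set 2 against 544 and 871 in reference set 1, a log2 fold change of 1.28 (SE 0.23, limma adjusted p = 0.00332). HMMR, with 1747 and 1690 against 617 and 1088, stood at 1.07 (SE 0.23, limma adjusted p = 0.0111), and CDC20 at 1.11 (SE 0.21, limma adjusted p = 0.00413). INCENP had the lowest value, at -0.61 (SE 0.23, limma adjusted p = 0.125), and was not called. The libraries of reference set 1 differed from each other in these genes, with CCNB1 2.11-fold lower in library a than in library b. Without library R1a, 2 of 42 genes were called higher and 0 lower, where 2.98% and 2.43% of all genes were. Without library b of that set, 15 were higher and 0 lower, where 2.19% and 2.53% of all genes were. Without library R2a, 8 were higher and 1 lower, where 4.73% and 7.98% of all genes were. Without library R2b, limma called 0, with 12 at an unadjusted p under 0.05, where 0.135% of all genes were called higher, 0.282% lower and 12.9% had such a p.

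Other genes of cell division, from lists named by function and chosen with earlier results of these data known, were lower in numerator set 2 in most cases. Of 103 such genes outside DNA replication, 70 were lower and 1 higher in the fourth comparison and 78 were lower and 3 higher in the third comparison in the authors' deposited table. Their medians in the authors' deposited table were -0.90 and -0.98. None of them was called in the second or the first comparison in the authors' deposited table, where 1 and 0 had an unadjusted p under 0.05. Over all tested genes of that table, 17.5% were lower and 17.2% higher in the fourth comparison, and 16.1% and 14.8% in the third. In the second and the first, 9.25% and 2.79% of all tested genes had an unadjusted p under 0.05. Of 18 spindle pole genes, 14 were lower in the fourth and 17 in the third comparison in the authors' deposited table. ASPM, a spindle pole organiser, had log2 fold changes of -2.10 (SE 0.22, adjusted p = 1.59e-19) in the fourth and -2.15 (SE 0.48, adjusted p = 6.11e-05) in the third comparison, per the authors' deposited table. FAM83D had -1.90 (SE 0.20, adjusted p = 5.46e-19) in the fourth and -1.67 (SE 0.27, adjusted p = 1.63e-08) in the third comparison, per the authors' deposited table. Of 19 cohesin and condensin genes, which hold and compact chromosomes, 14 and 18 were lower in the authors' deposited table. The authors' deposited table has the condensin core subunit SMC4 at -2.04 in the fourth and -1.45 in the third comparison and NCAPD2 at -1.65 and -1.28. Those not called in the fourth were the cohesin genes STAG1, STAG2, WAPL, PDS5A and PDS5B. Of 29 other kinetochore genes, 23 and 22 were lower, and those with the smallest p were CENPH at -2.05 and -1.43 and HJURP, the chaperone of CENPA, at -1.68 and -1.85 in the authors' deposited table. MAD1L1, which anchors MAD2L1 at kinetochores, was higher in the third at 0.43 (SE 0.16, adjusted p = 0.0278) and stood at 0.10 (SE 0.20, adjusted p = 0.738) in the fourth comparison in the authors' deposited table.

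Lists of entry control, of the anaphase-promoting complex and of the DREAM and MMB complexes, which repress or activate cell cycle promoters, were called lower in part. Of all tested genes, 17.5% were lower in the fourth and 16.1% in the third comparison. Of 10 entry control genes, 6 were lower in the fourth and 7 in the third comparison in the authors' deposited table, with CCNF at -1.86 and -1.65 and ENSA at -1.02 and -0.43. PPP2R2A, a subunit of the phosphatase that opposes CDK1, was higher in the third at 0.41 (SE 0.16, adjusted p = 0.0326) in the authors' deposited table. Of 16 genes of the anaphase-promoting complex and its regulators, 8 and 8 were lower in the authors' deposited table. Among them were FZR1, an activator, at -1.31 and -0.92 and FBXO5, an inhibitor, at -1.06 and -1.20 per the authors' deposited table. The subunit ANAPC16 was higher in the third at 0.61 (SE 0.17, adjusted p = 0.00175), per the authors' deposited table. Of 11 DREAM and MMB genes, 5 and 6 were lower in the authors' deposited table. The authors' deposited table has MYBL2 at -1.20 and -1.18 and TFDP1 at -1.06 and -1.07. LIN52 was higher in the fourth at 0.72 (SE 0.27, adjusted p = 0.0264), per the authors' deposited table. Of 20 DNA replication genes, which act earlier in the cycle, 18 and 19 were lower with medians of -0.91 in the fourth and -1.0 in the third comparison in the authors' deposited table. PCNA, the sliding clamp, had -1.23 and -0.99, and FEN1, a nuclease of lagging strand synthesis, had -1.23 and -1.48 in the authors' deposited table. Between the libraries of numerator set 1, library a was lower than library b in 20 of 20 replication genes with a median log2 ratio of -1.69. In reference set 1, library a was lower in 40 of 42 mitosis genes but higher in 14 of 20 replication genes, with a median of 0.11.

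**Figure D5:**
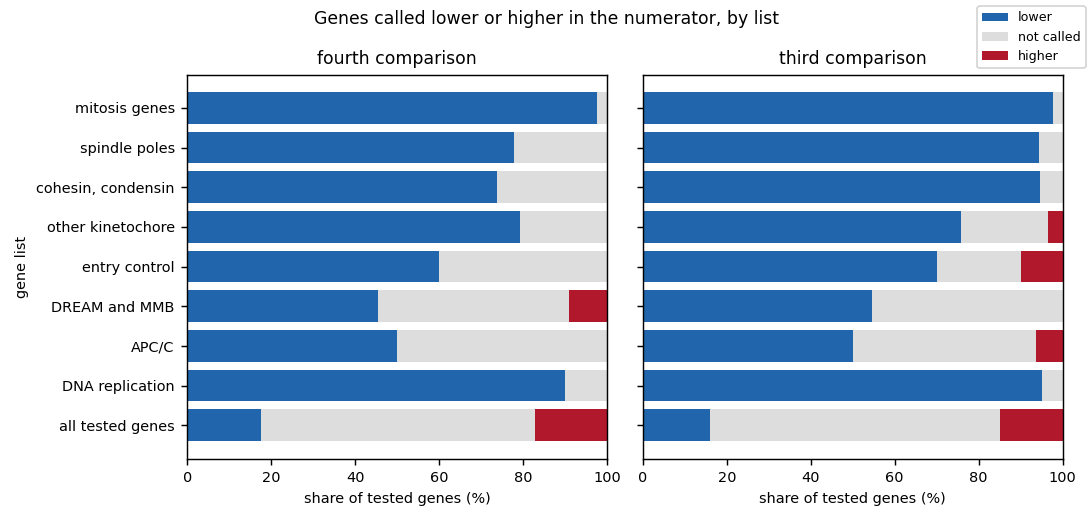
Share of tested genes (horizontal axes, percent) called lower (blue), not called (grey) or called higher (red) in the numerator at an adjusted p under 0.05, by gene list, in the fourth and the third comparison in the authors' deposited table. The mitosis genes were lower in 41 of 42 cases in both, and 17.5% and 16.1% of all tested genes were lower. The lists and all tested genes were not matched for level.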

How the data were processed

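Per the labels, RNA of 10 mouse samples in 4 groups was sequenced by a commercial service, and the stated selection was an absolute log2 fold change above 1 with an unadjusted p-value below 0.05. For aligner, counter and build: not given in the sources used here. A single deposited table of 28 columns was analysed, with 4 unnamed comparisons side by side. Per the file headers, each comparison holds a base mean, log2 fold change, standard error, statistic and raw and adjusted p-values. The base mean is the mean of normalised reads over a comparison's libraries, by the authors. Log2 values, the fold changes and standard errors, stand as the authors deposited them. The test statistic is the authors' score, deposited as the fold change over its standard error. The p-values and adjusted p-values were also made by the authors, per the file headers. Of the 24 value columns, 0 belong to a sample of the labels. None of the identifiers is a mouse gene, so the count model planned for the labelled groups had no columns to run on and was not fitted.

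Reads per library were recovered with Python 3.11.15 (numpy 2.4.6, pandas 2.3.3, scipy 1.17.1). Library steps were searched in rows with a base mean under 3, rows with reads in 1 library alone gave its side by the sign of their fold change, and the 8 whole numbers per gene that met all 4 base means were found by lattice reduction. Recovery reached 99.6% of the genes listed in all 4 comparisons. Size factors recomputed from the recovered reads differed from those in the steps by at most 0.217%. Normalised reads are recovered reads over the size factor of the median ratio to the geometric mean. The recovery and the limma step were tested on simulated data. No length of a transcript was used. Where reads of different genes are set side by side or summed, as for the markers, they are not corrected for length.

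The threshold for a call was an adjusted p under 0.05, adjusted by the authors within each comparison over its rows that hold an adjusted p. Differences between comparisons without a common library were tested with a Wald test on the root of the summed squared standard errors, with Benjamini-Hochberg adjustment over all genes tested in both. limma 3.58.1 (R 4.3.3) with a mean-variance trend was fitted to log2(normalised reads + 1) of genes with at least 10 normalised reads on average, with 2 libraries a side and Benjamini-Hochberg adjustment, as an alternative added after the data had been seen. The sets of libraries are those of the authors' own comparisons. CPM are base means scaled to the sum of base means in the authors' deposited columns. Poisson intervals are exact at 95%. The members and the gene lists were chosen with earlier results of these data known. In each role group the 3 genes with the smallest deposited p in the fourth comparison were named with full values, and from each other list the 2 with the smallest p and those called in the other direction. BUB3, ESPL1, BUB1B, SPC25, INCENP and HMMR were named in addition after their values were seen. No human sequence was used here.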

Additional observations from a re-analysis of the deposited data

Results flagged for a closer look

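Fold changes that differed between comparisons without a common library are given here because the difference itself was tested. Numerator set 2 over reference set 2 (the fourth comparison) and numerator set 1 over reference set 1 (the first) differed in 21 of the 42 mitosis genes. Of all genes tested for that difference, 4.97% were lower and 4.08% higher. Numerator set 2 over reference set 1 (the third) and numerator set 1 over reference set 2 (the second) differed in 5 of 42. There 4.74% of all genes tested were lower and 3.21% higher. The third and the second comparison hold the same 8 libraries as the fourth and the first in another pairing, so the tests are not independent of each other. CDC25B, CENPF and ECT2 passed in both, and the share of all genes that did so was not worked out. For CDC25B the difference of the log2 fold changes in the authors' deposited table was -2.34 in the fourth minus the first and -1.51 in the third minus the second comparison. For CENPF these differences were -2.22 and -1.80 in the authors' deposited table. For ECT2 they were -1.76 and -1.32 in the authors' deposited table. Within numerator set 1, library a was 2.51-fold lower than library b for CDC25B, 3.36-fold for CENPF and 2.41-fold for ECT2, where the median of the mitosis genes was 4.06-fold. The reference sets enter the tests with opposite sign, and they differed too. limma on the recovered reads called 11 of 42 mitosis genes higher in reference set 2 and 0 lower, where 3.41% and 4.06% of all genes were. CCNB1 and CDC20 were among those called higher. The part of these gaps in the differences, and in the unequal counts of 21 and 5, was not tested.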

How the results depend on the processing

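Of 70 alternatives that kept all libraries, 67 were rated the same. A count was so rated within a set ratio of the main count, and a median when it moved less than the median standard error. Many of these 67 set a count of 0 against 0, as for the mitosis genes called higher in each comparison. Medians rebuilt from the deposited base means and fold changes were bound to stay near the main ones. The 67 therefore says little about the genes called lower. Single genes still crossed the threshold. The 21 genes of the fourth minus the first comparison became 16 at an adjusted p under 0.01 and 24 among genes of at least 2 CPM. The 41 genes lower in the third comparison became 38 under the selection stated in the labels. In the second comparison, 3 mitosis genes were lower under the selection stated in the labels, against 0 at the adjusted threshold. The share of all genes under that selection was not worked out. Its unadjusted p alone was met by 9.25% of all tested genes in the second comparison, in either direction. The 5 genes that differed in the third minus the second comparison became 2 at an adjusted p under 0.01 and 2 when fold changes were centred on the median gene. In the fourth minus the first comparison, 19 genes passed after centring, all among the 21. The share of all genes that passed at these other settings of the differences was not worked out. limma on the recovered reads called 42 mitosis genes lower in the fourth and 40 in the third comparison, against 41 and 41 in the authors' deposited table. The 2 not called by limma in the third were PRC1 and HMMR. With each library left out in turn, limma called 40 to 41 genes lower in the fourth, 36 to 41 in the third, 0 to 41 in the second and 0 to 38 in the first comparison, and 0 to 0 higher in each, where 13.7% to 24.7%, 9.44% to 21.2%, 0% to 11.2% and 0% to 9.89% of all genes were called lower. The medians were taken from log2 ratios of mean normalised reads and not from limma. They ran from -2.12 to -1.78 in the fourth, from -1.86 to -1.44 in the third, from -1.96 to 0.036 in the second and from -1.55 to 0.42 in the first comparison. In the second and the first, both ends came from leaving out library b or library a of numerator set 1. No paired analysis was possible because the columns carry no sample or replicate number. A negative binomial model of the recovered reads was planned as an alternative and was not run. Of the mitosis genes PRC1 had the fewest reads, 9 to 45 reads per library.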
